A study of Mus musculus with 3 samples.

Results

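The genes of the PI3K, AKT and mTOR pathway were examined in cap mesenchyme, the nephron progenitor cells that surround the tips of the ureteric tree in the embryonic kidney. A list of 35 genes was taken by symbol, from the lipid kinase at the membrane to the growth regulators at the lysosome, and 33 of them had probe sets assigned to a single gene symbol. These 33 genes were read by 89 of the 34945 single-gene probe sets on the array, out of 18193 named genes in all. The remaining members, Rps6ka1 and Rps6kb1, which encode kinases of the RSK and S6K families, entered only the promoter counts, and their expression was not analysed here.

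The study profiled cells isolated by fluorescence-activated sorting from trypsin-dissociated kidneys of CD-1 mouse embryos at E15.5 (Theiler stage 23), with the sex of the embryos unknown. All samples carried the transgene Tg(Six2-EGFP/cre)1Amc, in which Six2 regulatory sequence drives a green fluorescent protein joined to Cre recombinase, so the cells were defined by the activity of that reporter. The 3 samples formed 1 group, and each was a pool of about 5 to 10 kidneys, called pools 1 to 3 after the numbers in their titles. Total RNA from each pool was amplified in 2 rounds, labelled with biotin and hybridised to 1 Affymetrix array. No sample lacking the transgene and no other sorted population was analysed here, so genes were read against array background and against the spread between pools.

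In this pathway, receptor tyrosine kinases recruit a dimer of a regulatory and a catalytic PI3K subunit, which makes a membrane lipid that draws AKT to the kinase PDK1. Active AKT inhibits the TSC complex, which otherwise switches off the small GTPase Rheb, and Rheb together with the Rag GTPases activates mTOR complex 1 on the lysosome when amino acids are available. That complex promotes protein synthesis and restrains autophagy, while AMP-activated kinase (AMPK) and the stress protein encoded by Ddit4 oppose it. In the developing kidney, growth factor signals through PI3K act on the survival and renewal of nephron progenitors, and the dosage of Tsc1 is known to affect how long these progenitors persist.

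Signals are linear array intensities, and a level is given for each pool in turn. The background level of an array was the 95th percentile of 150 probe sets for sensory receptor, hair and mucosal defence genes, and the 3 arrays gave 197, 186 and 201 in the order of the pools. A probe set was called above background when limma's one-sided test over the 3 pools gave an adjusted p under 0.05, and a gene when any of its probe sets was. Probe sets differ in affinity, so the signal of one gene was not set against that of another, and a gene that did not pass may still be transcribed. Each sample was bulk RNA, in which fewer cells of a type and less RNA per cell cannot be told apart.

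Marker genes were read first. All 9 cap mesenchyme markers were above background, with Six2 at 8734, 5727 and 9255 and Cited1, a marker of uncommitted progenitors, at 770.2, 1009 and 853 in pools 1, 2 and 3. The 6 stromal markers were above background too, among them Foxd1 at 7369.9, 7389 and 7938. Of the markers of neighbouring cells, 2 of 7 for ureteric epithelium (Wnt11 and Wnt7b) and 1 of 6 for endothelium (Egfl7) passed. In limma's test 0 of 7 macrophage and 0 of 5 erythroid markers passed, with 0 and 0 at an unadjusted p under 0.05. These counts depended on the setting: the macrophage gene Cd68 passed with background at the 90th percentile (adjusted p = 0.045, limma) and the globin gene Hba-a2 without pool 1 (adjusted p = 0.040, limma). With background at the 99th percentile the calls of Wnt11, Wnt7b, Egfl7 and the stromal gene Pdgfra were lost. How much of any pathway signal came from cells with stromal transcripts was not tested.

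Most of the pathway was detectable in these sorted progenitors. The count was 28 of 33 measured genes (84.8%), beside 54.4% of all named genes. The genes that did not pass were the PI3K catalytic subunits Pik3cb and Pik3cg, the mTOR inhibitor gene Deptor, the S6 kinase gene Rps6kb2 and the AMPK catalytic subunit gene Prkaa2. Counted by probe set, however, the pathway stood near the array as a whole: 44 of 89 probe sets (49.4%) passed, beside 47.2% of all single-gene probe sets and 41.5% of all probe sets, unnamed ones included. The members had 2.70 probe sets per gene on average and all named genes 1.92, and a gene with more probe sets has more chances to pass. Among genes with several probe sets 20 of 23 members passed (87.0%), beside 72.0% of all such genes. Among genes with 1 probe set 8 of 10 members passed (80%), beside 37.1%. When a majority of the probe sets of a gene had to pass, 17 members remained above background (51.5%, beside 39.0% of all genes), and when all had to pass, 9 did (27.3%, beside 31.4%).

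**Figure D1:**
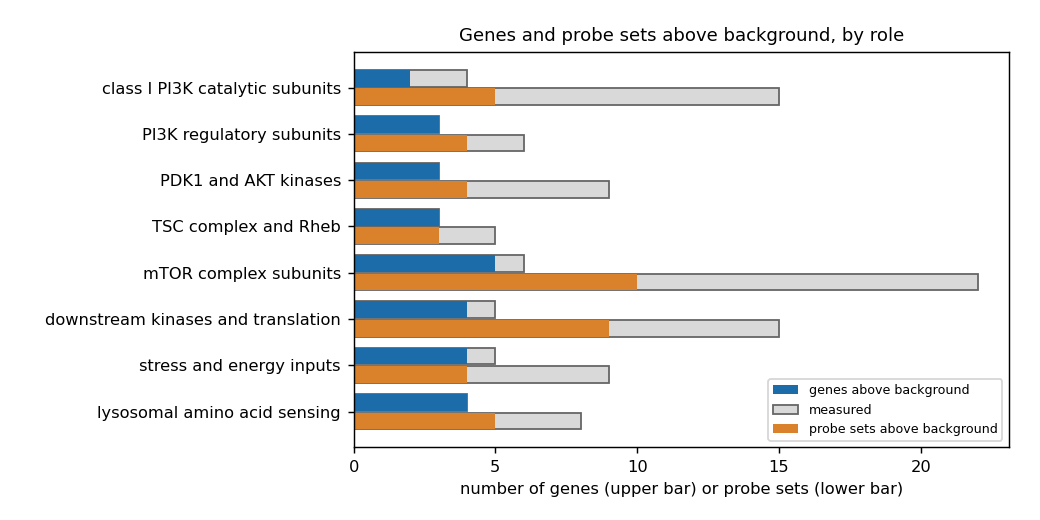
Horizontal bars give the number of genes (upper bar of each pair, blue) and probe sets (lower bar, orange) above background for each role in the pathway, with grey outlines for the number measured. The PI3K regulatory subunits, PDK1 and AKT kinases, TSC complex with Rheb, and lysosomal genes are above background in full at the gene level, while in every role some probe sets are not.

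The class I PI3K catalytic subunits, which make the lipid messenger, were split. Pik3ca, the gene of the broadly used p110-alpha isoform, had signals of 5807, 8736 and 10787 in pools 1, 2 and 3 on its brightest probe set. This was 5.28 ± 0.18 log2 units above background (limma's moderated SE, n = 3, with adjusted p = 7.0e-08 in limma). Pool 1 was the lowest and pool 3 the highest, and every pool lay far over its background level. In all, 4 of 6 Pik3ca probe sets passed. The gene of the other broadly used isoform, Pik3cb, was read by 1 probe set, at 114, 106 and 198, and no pool reached its background level (adjusted p = 1).

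The catalytic isoforms best known from leukocytes gave weak or divided readings. Pik3cg, which encodes p110-gamma, read 149, 64.4 and 233 on one probe set and 11.7, 3.59 and 6.86 on the other, and neither passed (0 of 2 at an unadjusted p under 0.05 in limma). Pool 3 alone exceeded its background level, on the first of these. Pik3cd, which encodes p110-delta, passed through 1 of its 6 probe sets, at 836, 702 and 784 (adjusted p = 1.3e-05, limma). Its other probe sets did not pass, and the pair built on the gene's RefSeq mRNA read 15.52, 4.92 and 15.8 and 27.1, 15.2 and 46.5. The call for Pik3cd therefore rests on 1 probe set, and its other probe sets read under the background level in all 3 pools.

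The promoters of these paralogs are shown because the subunits fell on both sides of the background level. Each sequence holds the 250 bases before the RefSeq transcription start (GRCm38.p6), 5′ to 3′ on the strand of the gene, with CpG dinucleotides in capitals.
Pik3ca (chr3:32396815-32397064, plus strand): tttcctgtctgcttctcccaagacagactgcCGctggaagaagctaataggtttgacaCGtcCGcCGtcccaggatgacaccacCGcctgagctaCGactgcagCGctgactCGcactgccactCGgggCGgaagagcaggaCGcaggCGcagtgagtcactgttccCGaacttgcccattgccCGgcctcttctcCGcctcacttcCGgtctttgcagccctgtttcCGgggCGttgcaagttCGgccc
Pik3cb (chr9:99140212-99140461, minus strand): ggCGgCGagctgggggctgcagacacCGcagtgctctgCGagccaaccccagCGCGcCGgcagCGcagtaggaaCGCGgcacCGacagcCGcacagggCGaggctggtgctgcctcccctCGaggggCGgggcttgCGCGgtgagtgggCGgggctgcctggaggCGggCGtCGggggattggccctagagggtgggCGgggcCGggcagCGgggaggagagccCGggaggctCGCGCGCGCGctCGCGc
Pik3cg (chr12:32208660-32208909, minus strand): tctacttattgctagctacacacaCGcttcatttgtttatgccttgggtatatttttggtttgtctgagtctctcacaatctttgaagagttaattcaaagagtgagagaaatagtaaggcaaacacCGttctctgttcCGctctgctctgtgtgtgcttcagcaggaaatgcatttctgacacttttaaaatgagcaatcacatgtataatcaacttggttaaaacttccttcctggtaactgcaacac
The windows shown for Pik3ca, Pik3cb and Pik3cg held 19, 32 and 3 CpGs, beside a median of 6 over 32851 windows of all genes in the RefSeq table. A further start of Pik3cg had 5, and the 3 starts of Pik3cd, which was above background, had 4, 19 and 6. Of the genes not above background, Pik3cb thus had the most CpGs of the catalytic subunits and Pik3cg windows with few. Over the 46 windows of the 32 members with an entry, the median was 18 CpGs, and 33 windows (71.7%) held more than 6, beside 46.3% of all windows.

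All 3 genes of PI3K regulatory subunits, which stabilise the catalytic subunit and bind activated receptors, were above background. Pik3r3, the gene of the p55-gamma subunit, had signals of 7844, 7211 and 6148 on its only probe set (adjusted p = 1.9e-08, limma). Pik3r1, the gene of p85-alpha and its shorter forms, was at 1104, 1114 and 953 on its brightest probe set and passed on 2 of 4. Pik3r2, the gene of p85-beta, read 861, 443 and 672 on its only single-gene probe set, with pool 2 the lowest and every pool over its background level. Its call was lost when background was set at the 99th percentile (adjusted p = 0.062, limma).

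The kinases at the centre of the pathway, PDK1 and AKT, were all above background, though not on every probe set. Pdpk1, which encodes PDK1, had signals of 3906, 4144 and 3539 on the probe set that passed, a spread of 7.90% of the mean. A further Pdpk1 probe set read 828, 308 and 165, over the background level in pools 1 and 2 and under it in pool 3, and did not pass (adjusted p = 0.11, limma). Akt1 was at 2391, 1807 and 2626 on the 1 of 4 probe sets that passed. Akt2, best known from insulin-responsive tissues, was at 1975, 2180.4 and 2335 on a probe set that can match several transcripts, and at 335, 501.4 and 371 on one specific to the gene, which also passed. For both AKT genes all 3 pools of these probe sets lay over the background level.

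Of the TSC complex, the brake that AKT releases, the members Tsc1 and Tsc2 were above background, and so was its target Rheb. Tsc1, which encodes hamartin, had signals of 4026, 6114 and 7908 in pools 1, 2 and 3 on the 1 of 3 probe sets that passed. Tsc2, which encodes the GTPase-activating partner tuberin, was at 514, 675 and 913 on its only probe set. In both genes pool 1 was the lowest and pool 3 the highest, with a ratio of 1.96 for Tsc1 and 1.75 for Tsc2 on the signal + 16 scale, under the 2-fold mark used for pool differences. Rheb, the GTPase that activates mTOR complex 1, had signals of 28697, 23316 and 24536, with 1.23-fold between the highest and lowest pool. This was 6.92 ± 0.14 log2 units above background (limma's moderated SE, n = 3, with adjusted p = 1.6e-08 in limma).

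**Figure D2:**
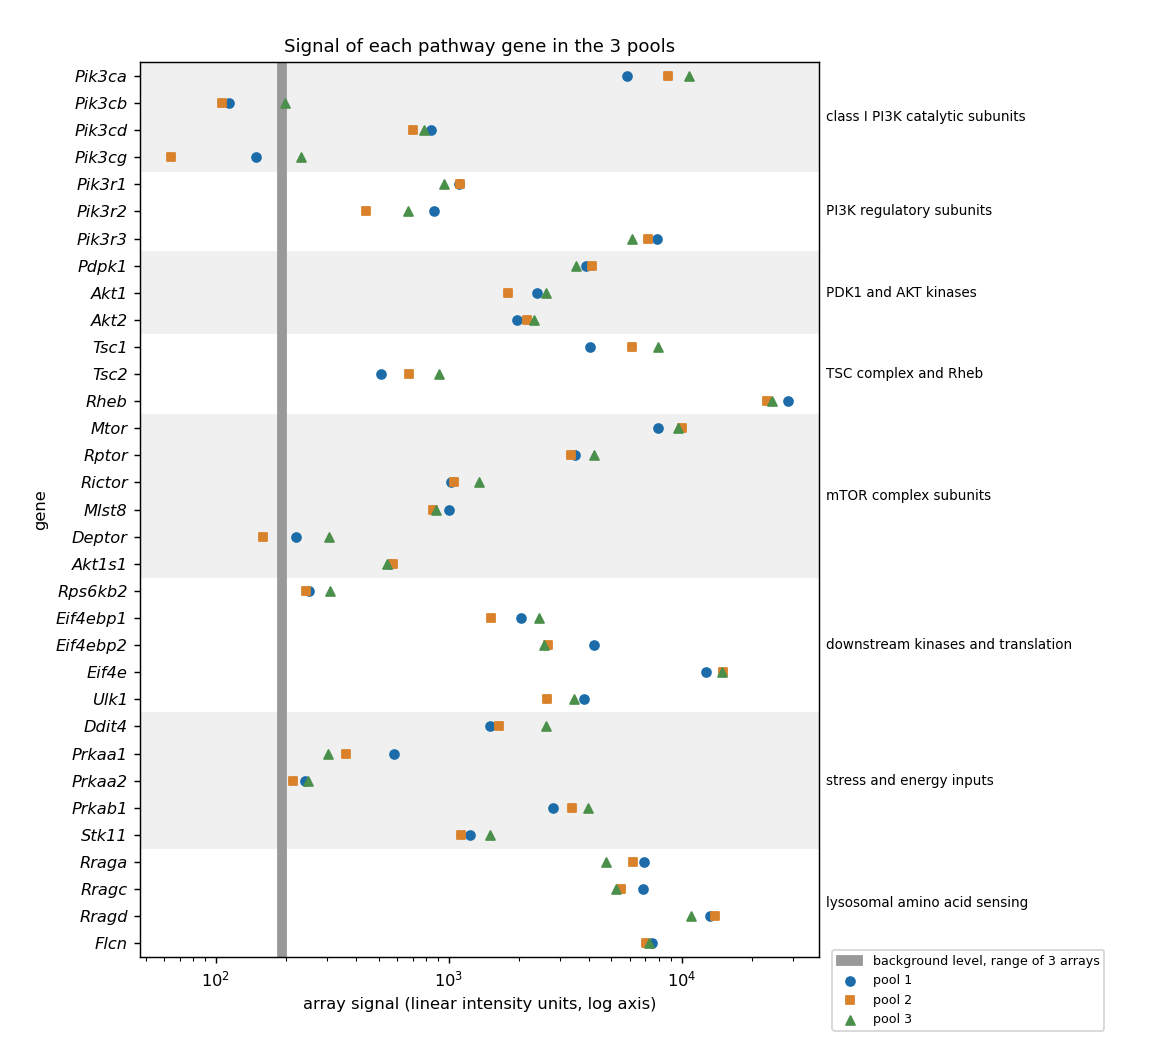
Array signal (linear intensity units on a log axis) of the brightest probe set of each of the 33 pathway genes, grouped by role, with a symbol for each of the 3 pools and a grey band for the background level, 186 to 201. Each of the genes not above background (Pik3cb, Pik3cg, Deptor, Rps6kb2 and Prkaa2) has symbols on or close to the band.

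Among subunits of the mTOR complexes, 5 of 6 genes were above background. Mtor itself, the kinase shared by both complexes, had signals of 7898, 10028 and 9637 on the brightest probe set (adjusted p = 1.7e-08, limma), and passed on 2 of 3 probe sets. Mlst8, the other core subunit of both complexes, was at 1000.2, 855 and 886 and passed on 1 of 2. The highest pool exceeded the lowest by 1.27-fold for Mtor and 1.17-fold for Mlst8 on the signal + 16 scale.

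The subunits that define each complex were present as well. Rptor, the substrate-binding subunit of mTOR complex 1, was at 3485, 3359 and 4227 on its brightest probe set. A further Rptor probe set passed at 916, 550.1 and 234, where pool 1 exceeded pool 3 by 3.73-fold on the signal + 16 scale, while on the brightest probe set pool 3 was the highest. The 2 Rptor readings thus ordered the pools differently. Rictor, the scaffold of mTOR complex 2, passed on 3 of 5 probe sets, at 1025, 1052 and 1350.4, at 1407, 1199 and 659 and at 922, 1092 and 719. Pool 3 was the highest on the first of these and the lowest on the others. A Rictor probe set that did not pass read 839, 139 and 13.2, so that pool 1 stood over background and the other pools under it.

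The mTOR inhibitors differed in their calls. Akt1s1, the gene of PRAS40, which binds and restrains mTOR complex 1 until AKT phosphorylates it, read 560.1, 579 and 543 with a spread of 3.14% of the mean, and passed on 2 of 3 probe sets. The call was lost with background at the 99th percentile (adjusted p = 0.25, limma). Deptor, the inhibitor found in both complexes, did not pass on any of 6 probe sets (0 of 6 at an unadjusted p under 0.05 in limma). Its brightest probe set read 222, 159 and 306, under the background level in pool 2 and over it in pools 1 and 3, and the mean signals of the other 5 ran from 19.3 to 90.04.

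Of the genes that carry the signal to translation and autophagy, 4 of 5 measured were above background. Eif4e, which encodes the cap-binding protein that starts translation, had signals of 12709, 15104 and 14852 and of 10405, 11138 and 11080.5 on its brightest probe sets, and passed on 3 of 4. The second of these varied by 3.75% of its mean between pools. Both listed members that encode mTOR-controlled repressors of Eif4e were above background. Eif4ebp1 passed on all 3 of its probe sets, with 2047, 1514 and 2435 on the brightest. Eif4ebp2 passed on 2 of 5, with 4229, 2665 and 2579 on the brightest. Eif4ebp1 was the only member with several probe sets that passed on every one of them. Its brightest probe set is of a class that may cross-hybridise.

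Of the remaining effectors, Ulk1 passed and Rps6kb2 did not. Ulk1, the autophagy-starting kinase that mTOR complex 1 inhibits, was at 3811, 2633 and 3455 on one probe set and at 19.6, 8.22 and 21.1 on the other. The first passed and the second lay far under background in every pool, although the platform lists both under the same transcript record. Rps6kb2, which encodes S6 kinase 2, read 252, 245 and 310.0 on its only probe set. All pools lay over their background level, by a mean of 0.43 ± 0.25 log2 units (limma's moderated SE, n = 3). This small margin did not pass (adjusted p = 0.15, limma) and passed only with background at the 90th percentile (adjusted p = 0.027, limma).

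Energy and stress inputs to the pathway were above background in 4 of 5 cases. Stk11, which encodes the AMPK-activating kinase LKB1, had signals of 1237, 1128 and 1508 in pools 1, 2 and 3, and Prkab1, which encodes an AMPK scaffold subunit, of 2808, 3379 and 3968. Each passed on 1 of 2 probe sets. The second Prkab1 probe set swung between pools, at 412, 26.0 and 261, and did not pass.

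The catalytic subunits of AMPK lay near the background level. Prkaa1, the gene of the alpha-1 subunit, read 585, 361 and 304 on its only probe set and passed (adjusted p = 0.008, limma), with pool 1 the highest. The call was lost without pool 2 (adjusted p = 0.057), and with background at the 99th percentile the gene lay below it (adjusted p = 1). Prkaa2, the gene of the alpha-2 subunit, was at 241, 214 and 248 on its brightest probe set and did not pass on any of 3 (0 of 3 at an unadjusted p under 0.05 in limma; smallest adjusted p = 0.41).

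Ddit4, which encodes the stress-induced activator of the TSC complex known as REDD1, had signals of 1503, 1653 and 2625 (adjusted p = 1.1e-06, limma), and pool 3 was the highest. Of 10 genes induced by tissue dissociation and other stress, 8 were above background, and of these pool 1 was the highest for 2, pool 2 for 1 and pool 3 for 5. Among them Jun read 6062, 8995 and 11044, Dusp1 5189.7, 5533 and 7454 and Hspa1b 11489, 7087 and 3644. Jun and Dusp1 were highest in pool 3, as Ddit4 was, whereas Hspa1b was lowest there, and their part in the Ddit4 signal was not tested.

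All 4 genes of lysosomal amino acid sensing were above background. Rraga, the gene of the RagA GTPase, had signals of 6895, 6198 and 4748 in pools 1, 2 and 3, and Rragc, the gene of its partner RagC, of 6803, 5472 and 5257. Rragd, the gene of RagD, the alternative partner, read 13229, 13887 and 10959 (adjusted p = 1.6e-08, limma) on 1 of 3 probe sets, the others of which did not pass. In each of these genes pool 3 was the lowest, with ratios between the highest and lowest pool of 1.45, 1.29 and 1.27 on the signal + 16 scale. Flcn, the gene of folliculin, which acts on RagC and RagD, read 7455, 7008 and 7233 on its brightest probe set, a spread of 3.09% of the mean and the smallest among the member probe sets above background. A second Flcn probe set passed at 3644, 3455 and 3944. The brightest Flcn probe set is of a class that may cross-hybridise. A further one of that class read 55.9, 98.2 and 104, under the background level in every pool, and did not pass.

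The promoters of Rheb and Rragc were picked because they hold the E-box CACGTG, in capitals. Of the GTPases that switch on mTOR complex 1 at the lysosome, all of which were above background in every pool on their brightest probe set, the windows of Rraga and Rragd did not hold these letters. These letters read the same on both strands.
Rheb (chr5:24842362-24842611, minus strand): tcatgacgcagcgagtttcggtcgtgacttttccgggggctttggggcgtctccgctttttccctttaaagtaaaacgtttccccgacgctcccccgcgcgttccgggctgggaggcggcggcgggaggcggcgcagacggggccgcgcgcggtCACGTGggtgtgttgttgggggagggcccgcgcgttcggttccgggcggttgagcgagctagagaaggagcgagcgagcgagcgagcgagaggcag
Rragc (chr4:123917183-123917432, plus strand): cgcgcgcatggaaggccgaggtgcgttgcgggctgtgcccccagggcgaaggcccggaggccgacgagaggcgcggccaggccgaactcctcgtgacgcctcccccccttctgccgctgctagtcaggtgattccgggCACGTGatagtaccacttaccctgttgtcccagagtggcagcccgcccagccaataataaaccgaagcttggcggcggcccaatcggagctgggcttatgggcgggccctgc
The E-box starts 96 bases before the start site of Rheb and 112 bases before that of Rragc. It was also found in 1 window of Eif4e. In all, 3 of the 46 member windows held it (6.52%), beside 6.02% of all windows of that length, so the motif was about as frequent in members as elsewhere. The longer motif TCACGTGA, which contains the E-box and is bound by regulators of lysosomal genes, and also reads the same on both strands, was in 0 of the 46 windows and in 0.785% of all, which says only that these letters are not in these windows.

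**Figure D3:**
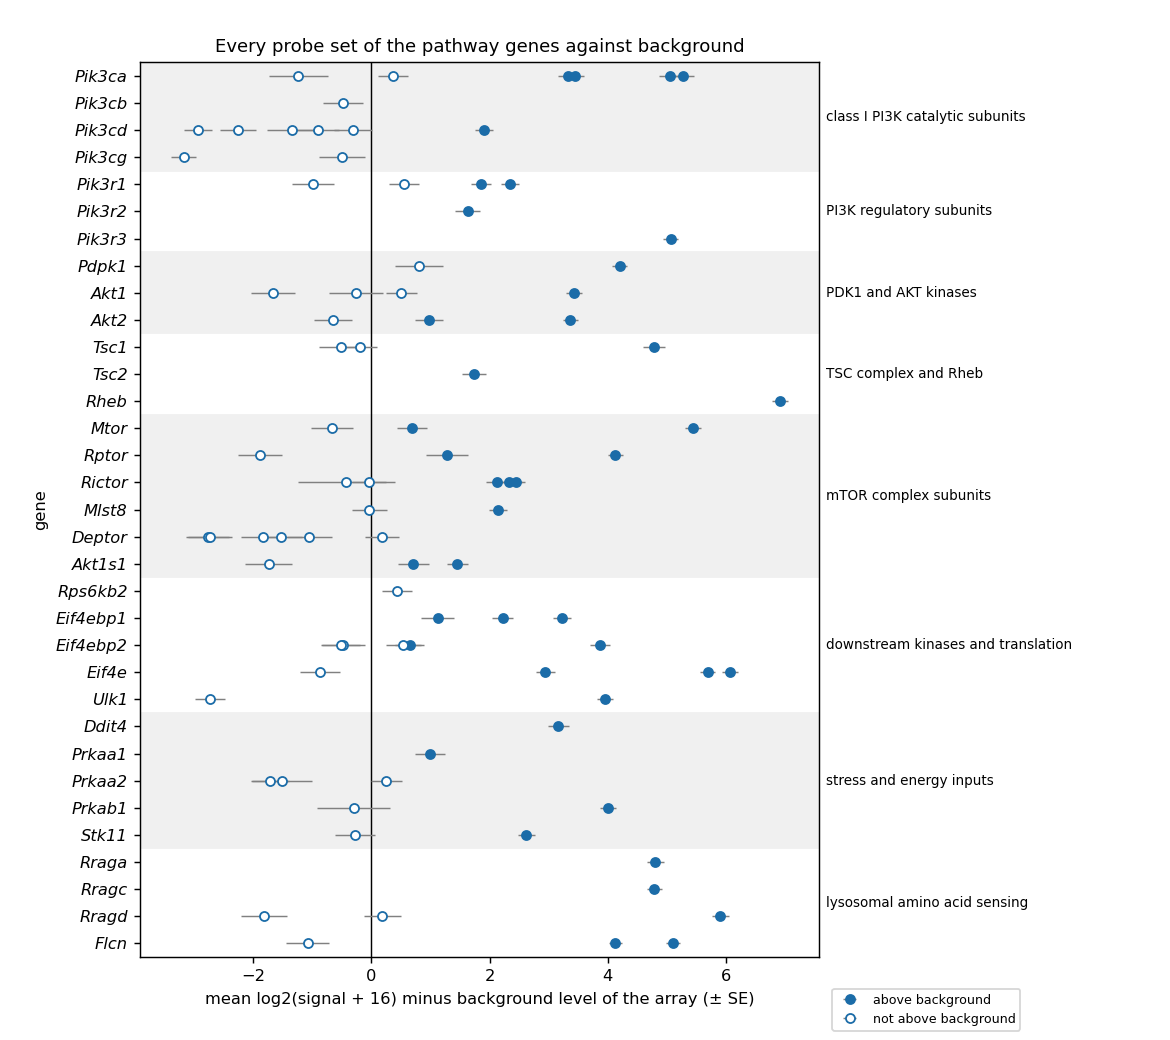
Each point is 1 of the 89 probe sets of the 33 genes, placed by its mean log2(signal + 16) minus the background level of the array. Bars give limma's moderated SE over 3 pools, and filled symbols mark probe sets above background. In 19 genes filled and open symbols occur together.

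Many genes of the pathway had probe sets that disagreed. Of the 23 members read by several, 19 held both passing and failing ones (82.6%), beside 46.3% of all genes with several. Of the others, Eif4ebp1 passed on every probe set, and Pik3cg, Deptor and Prkaa2 on none. Pik3cd and Deptor, with 6 probe sets each, passed on 1 and 0, while Pik3ca, also with 6, passed on 4. Among the further pathway genes described below, 35 of the 59 with several probe sets held both passing and failing ones (59.3%). The members had more probe sets per gene than average, genes with 1 included, which gives more room for such splits. The differences between these shares were not tested.

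Spread between pools was close to that of the whole array. For the 44 member probe sets that passed, the SD over pools had a median of 0.28 on the log2(signal + 16) scale, beside 0.25 for all named genes, and the median coefficient of variation was 18.4%, beside 17.4%. The highest pool exceeded the lowest by at least 2-fold in 3 member probe sets (6.82%), beside 11.7% of all. These were the second Rptor probe set, at 916, 550.1 and 234, one for Rictor, at 1407, 1199 and 659, and one for Eif4ebp1, at 747, 297 and 389. In all 3 of them pool 1 was the highest, and another probe set of the same gene showed a smaller range with a different pool on top.

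No pool was highest throughout the pathway. Pools 1, 2 and 3 were the highest in 15, 13 and 16 of the 44 probe sets (34.1%, 29.5% and 36.4%), beside 35.6%, 26.1% and 38.3% for all named genes. They were the lowest in 19, 13 and 12 (43.2%, 29.5% and 27.3%), beside 36.4%, 33.2% and 30.4%. The median deviation from the 3-pool mean was -0.0066, 0.013 and 0.034 on the log2(signal + 16) scale in pools 1, 2 and 3, beside -0.0039, -0.020 and 0.031 for all named genes. Among the 45 member probe sets that were not above background, 14 exceeded the background level in pool 1 (31.1%), 8 in pool 2 (17.8%) and 12 in pool 3 (26.7%), beside 18.9%, 17.2% and 13.6% of all such probe sets.

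**Figure D4:**
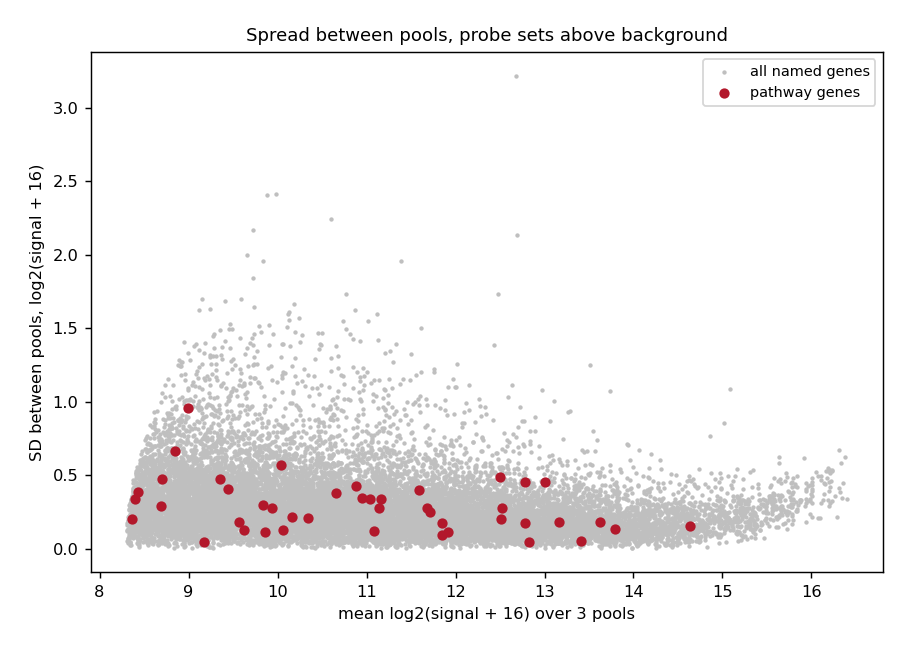
The SD between the 3 pools is plotted against the mean level, both on the log2(signal + 16) scale, for all probe sets of named genes above background (grey) and for the 44 of the pathway (red). The red points lie within the grey cloud at all levels, with a median SD of 0.28 beside 0.25.

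Further genes of the pathway were above background at a share near that of the members by gene and above it by probe set. From a list of 94 further genes, 86 were measured and 76 of these were above background (88.4%), beside 84.8% of the members and 54.4% of all named genes. By probe set 143 of 208 passed (68.8%), beside 49.4% for the members and 47.2% for all. When a majority of a gene's probe sets had to pass the share was 67.4%, beside 51.5% of the members, and when all had to pass 47.7%, beside 27.3%. The difference between these lists was not tested. In the AKT branch, which holds the FOXO factors and GSK3 kinases, 11 of 11 genes passed, in lysosomal amino acid sensing 19 of 21, in translation and other outputs 20 of 21, in energy sensing 8 of 9, and among further mTOR and TSC components 7 of 8. Receptors and adaptors passed in 5 of 7 cases and lipid kinases and phosphatases in 6 of 9.

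Upstream of PI3K, the growth factor receptor gene Igf1r was at 3382, 4207 and 3669 in pools 1, 2 and 3 on its brightest probe set. It passed on 3 of 5, and another that passed read 3326, 1791 and 1366, with pool 1 the highest. The insulin receptor gene Insr was at 3198, 4516 and 3824 on its brightest probe set. It passed on 2 of 3, and the other that passed read 757, 588 and 396. Irs1, which encodes the adaptor linking these receptors to PI3K, read 7691, 10243 and 8733 and passed, whereas the related Irs2 read 249.6, 33.5 and 21.3, over background in pool 1 alone, and did not. The endosomal lipid kinase gene Pik3c3 was at 1763, 1351 and 1614 and the gene of its partner Pik3r4 at 3104, 3107 and 6466, both above background.

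Downstream, Prkab2, the second AMPK scaffold subunit gene, was at 4258, 4761 and 5885 and Rps6, the S6 kinase substrate, at 9182, 12587 and 11743, the last of which is uncertain because further probe sets name Rps6 together with its pseudogene Rps6-ps4. Lamtor1 and Lamtor3, which encode parts of the Ragulator that anchors Rag GTPases to the lysosome, read 14416, 15335 and 15738 and 14017, 14171 and 13362. The eIF4E kinase gene Mknk2 read 9118, 8491 and 9299. These 3 genes had the largest moderated statistics of the list. The smallest were those of Prr5 (55.2, 88.6 and 95.7), a subunit gene of mTOR complex 2, Pik3r5 (101, 82.5 and 80.5), the partner gene of Pik3cg, and the AMPK subunit gene Prkag3 (84.1, 51.5 and 165), none of which passed.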

How the data were processed

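Gene expression was measured on 3 arrays, 1 per pool of sorted cells, in 1 group. The deposited values are linear intensity signals for 45101 probe sets, made by the authors with GCOS, per the submitters' processing notes; its version and settings are not given in the sources used here. The mean after trimming 2% at each end was 1500 on every array, so the arrays had been scaled to 1 target. The platform annotation supplied gene symbols (34945 probe sets with 1 symbol, 932 with several, 9160 with none, and 64 controls left out).

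From log2(signal + 16), the 95th percentile of 150 background probe sets (24 for defensins, 43 for keratin-associated proteins, and 3 bitter taste, 36 vomeronasal and 44 olfactory receptors) was subtracted on each array. An intercept-only limma fit (version 3.58.1, R 4.3.3, eBayes with intensity trend) gave a one-sided test that the mean exceeds 0, with Benjamini-Hochberg adjustment over 45037 probe sets and a threshold of 0.05. The brightest probe set, by mean log2 signal, gives the level of a gene. The p-values and SEs rest on the spread between these 3 pools, moderated by eBayes toward the typical spread of probe sets of like intensity. A moderated SE can thus differ from that of the 3 pools alone. The spread between pools may be technical, and the number of arrays limits precision. Adding 16 shrinks fold changes between weak signals. Motifs were matched on both strands of promoter windows credited to RefSeq (GRCm38.p6), using symbols. Of 35 members, 32 had an entry.

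In a simulation on 45037 probe sets, a small part of them was placed at known distances from the threshold. The test called 8% of those 0.5 log2 units above it, 68% of those at 1, 100% of those at 2 and 0% of those 1 unit below. Each was drawn with the average spread of probe sets at its level, so unusually variable ones are not covered.

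Members and gene lists were chosen with earlier results of these data known. All members could be named, as could a fixed set of relatives among the other pathway genes, the 3 highest and 3 lowest of that list by moderated statistic, and up to 4 genes per marker list. Alternatives covered pseudocount, background percentile and probe sets, normalization, filters, trend, the rule for several probe sets and each pool left out. Tables and plots used Python 3.11.15, pandas 2.3.3 and matplotlib 3.10.9.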

Additional observations from a re-analysis of the deposited data

How the results depend on the processing

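The count of member genes above background stayed between 25 and 29 under the 12 alternatives to the fit, with 27 to 28 when 1 pool was left out. It moved from 28 to 17 when a majority of a gene's probe sets had to pass and to 9 when all had to, and the count of other pathway genes moved from 76 to 41 under the last rule, since these rules ask more of genes with many probe sets. Of the 28 called members, 25 stayed above background under each of the 12 alternatives, and 4 of the 5 uncalled ones stayed uncalled. Pik3r2 (adjusted p = 0.062), Akt1s1 (0.25) and Prkaa1 (1) lost theirs with background at the 99th percentile, where Prkaa1 lay under it, and Prkaa1 also without pool 2 (0.057); Rps6kb2 gained one at the 90th percentile (0.027). Castor1, Lpin1, Wnt11 and Wnt7b fell under background at the 99th percentile (adjusted p = 1 each), and Pik3r6 and Fnip1 did so once probe sets with the suffixes s and x, which may cross-hybridise, were dropped (adjusted p = 1 each). Pdgfra (0.055) and Egfl7 (0.13) lost their calls at the 99th percentile, Cd68 gained one at the 90th (0.045) and Hba-a2 without pool 1 (0.040). Castor2 (adjusted p = 0.057, limma) and Mknk1 (0.46) also lost calls at the 99th percentile. Lpin1 lost its call without pool 3 too (0.094), and Irs4 (0.033) and Lamtor4 (0.040) gained calls at the 90th percentile. These genes are named because their calls changed. Member probe sets above background numbered 35 to 50 over the alternatives, and 38 to 44 when 1 pool was left out, with 38 without pool 2. Other pathway genes above background numbered 75 to 76 without 1 pool. The 2-fold range held in 3 member probe sets, and in 2 after quantile normalization. No paired analysis was possible because the 3 samples form a single group. Signals near background set the limit: a probe set of average spread 0.5 log2 units above it was called in 8% of simulated cases.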

Other observations

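Some probe sets name a pathway gene together with another gene and entered no count. The one shared by Eif4ebp3, the third member of the family of translation repressors, and Ankhd1 read 2478, 3121 and 3058 over the pools (adjusted p = 8.0e-08, limma), and which of these genes gave the signal cannot be told from it. The one shared by Pik3r2 and Ifi30 read 98.6, 57.4 and 175 and was not above background.

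Whether a probe set was built on a curated transcript did not sort the calls. Of the member probe sets whose platform record is a RefSeq mRNA, 8 of 16 were above background (50%), and of the others 36 of 73 (49.3%). For all named genes the shares were 47.1% and 47.2%.

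Of the 45 member probe sets not above background, 22 varied at least 2-fold between pools, beside 50.4% of those of all named genes. Among the 22, pool 1 was the highest in 13, pool 2 in 4 and pool 3 in 5. For all such probe sets of named genes the shares with pools 1, 2 and 3 highest were 39.3%, 32.8% and 27.9%.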
